A study of Homo sapiens with 18 samples.

Results

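The genes described here encode mTOR complex 1 (mTORC1), the proteins that tell it whether nutrients are present, and the kinase AMPK with its activator. They are the 43 rows of the deposited count table, of 60683 gene identifiers in all, whose Ensembl identifier maps to a fixed list of symbols, and each symbol matched 1 identifier. Of these, 42 had enough counts to be tested, and CASTOR1 did not (0 to 10 counts per library, 85 in all). The list was split by role into 9 sensors and brakes (SESN1, SESN2, SESN3, CASTOR1, CASTOR2, DDIT4, DEPTOR, AKT1S1 and EIF4EBP1, of which 8 were tested) and 34 core members, the subunits of the complexes, the kinases and their partners.

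The study sequenced RNA from 18 cultures of Cal27, an established cell line of oral squamous cell carcinoma derived from the tongue, after 24 h in 1 of 3 media. The labels call them H for high-glucose DMEM, 0 for medium deprived of glucose, and 2-DG for high-glucose DMEM with 5 mM 2-deoxyglucose, a glucose analogue that hexokinase phosphorylates and glycolysis cannot use further. Each medium was used as the control version (capTG in the labels) and with 10 nM recombinant human CGRP (TG), a neuropeptide released by sensory nerve endings, which gave 6 groups of 3 libraries labelled as independent biological repetitions. The growth notes call the media CM without saying what the letters stand for. All groups share 1 cell line, so the libraries sample cultures and not patients.

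mTORC1 is a kinase complex that promotes protein and lipid synthesis when amino acids, energy and growth factors suffice. Amino acids act through the Rag GTPases on the lysosome, which the Ragulator (LAMTOR) scaffold holds in place, and through the GATOR1 and GATOR2 complexes, to which leucine-binding sestrins and arginine-binding CASTOR proteins report. Growth factors act through the TSC complex, which switches off the GTPase RHEB, and low energy acts through AMPK, which LKB1 (STK11) activates and which restrains mTORC1. Much of this control is by protein binding and phosphorylation, which RNA levels do not measure.

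Libraries held 28038260 to 32661768 counts. Levels are given as CPM, a gene's counts per library brought to a common total, on library sizes scaled by the trimmed mean of M-values (TMM), and differences as log2 fold changes from edgeR's quasi-likelihood test over all 18 libraries, with p-values adjusted by the Benjamini-Hochberg method over 18159 tested genes. A gene is said to have risen or fallen where its adjusted p was below 0.05. Summed CPM of 9 squamous epithelial markers ran from 5380 to 7080, with none at 0. The sum hides opposite moves: with deprivation in control medium 4 rose and 3 fell (77.8%, against 60.6% of all tested genes). The largest were LAMB3 (1.84 on the log2 scale), KRT14 (-2.10) and KRT5 (-1.64). The 5 leukocyte markers summed to at most 4.71 CPM and the 5 fibroblast markers to at most 28.7 CPM. Within 5 summed leukocyte markers, PTPRC had 58 counts over the 3 libraries of 2-DG with CGRP and at most 1 over any other group. CD3E had 20 counts over those 3 libraries and at most 2 over any other group. The 4 endothelial markers summed to 24.3 to 25.2 CPM in high-glucose control and 42.3 to 43.9 CPM in high glucose with CGRP, against 1.79 to 2.67 and 3.08 to 3.87 CPM in the deprived groups. In high glucose 1 gene, CDH5, made up nearly all of that sum (22.3 to 23.1 CPM in control and 40.5 to 41.7 CPM with CGRP), with PECAM1 and TIE1 each under 0.2 CPM. The sums of 7 Schwann and neuron markers (CALCA, the CGRP gene, at 0 in every library) followed the same order of groups. They were 10.8 to 11.5, 18.5 to 21.6, 3.13 to 3.90 and 5.20 to 5.83 CPM. In high glucose NEFM made up most of the sum, with means of 6.57 CPM in control and 13.8 CPM with CGRP. Of the 4 tested, 3 fell with deprivation in both control and CGRP medium, while TUBB3 rose, by 0.80 and 0.84 on the log2 scale. In 2-DG medium the endothelial sums were 21.3 to 25.1 CPM in control and 39.5 to 43.6 CPM with CGRP, and the Schwann and neuron sums were 11.4 to 14.0 and 20.6 to 24.1 CPM. These markers moved with medium and with CGRP, and their part in the results was not tested. In bulk RNA, fewer cells of a type and less RNA per cell cannot be told apart.

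In the principal components of all tested genes, replicate 2 of the deprived CGRP group (0 TG) and replicate 2 of the 2-DG control group (2-DG capTG) stood apart from their group mates. The 42 tested members show how. In 0 TG replicate 2 the ratio of a member's CPM to the mean of its group mates ran from -1.02 (MTOR) to 1.10 (LAMTOR4) on the log2 scale, and it fell with the gene's merged exonic length (Spearman rho -0.659 over 42 members that share these libraries, a description). The 11 members shorter than 3000 bp had a median ratio of 0.61 and the 12 longer than 9000 bp one of -0.46. In 2-DG capTG replicate 2 the correlation was -0.630, the medians were 0.33 and -0.24, and the range was -0.76 (SESN3) to 0.64 (LAMTOR4). Counts of members called, and some of the single values that rest on these groups, are therefore given with and without both libraries. This choice was made after seeing the data.

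**Figure D1:**
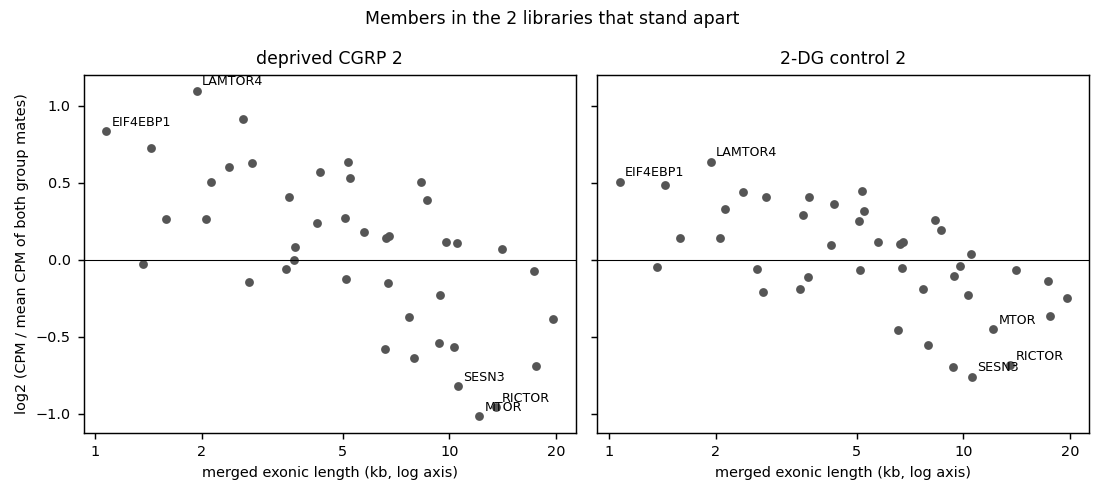
Ratio of each tested member's CPM to the mean of its 2 group mates (log2, vertical axis) against merged exonic length (kb, log axis) in 0 TG replicate 2 and 2-DG capTG replicate 2. Each point is 1 gene. Short genes lie mostly above 0 and long genes mostly below it, with medians of 0.61 and -0.46 in 0 TG replicate 2.

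Every library's level of every tested member, relative to high-glucose control, is drawn in the heatmap. All 6 deprived libraries had SESN2 above and CASTOR2 and SESN3 below every other library.

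**Figure D2:**
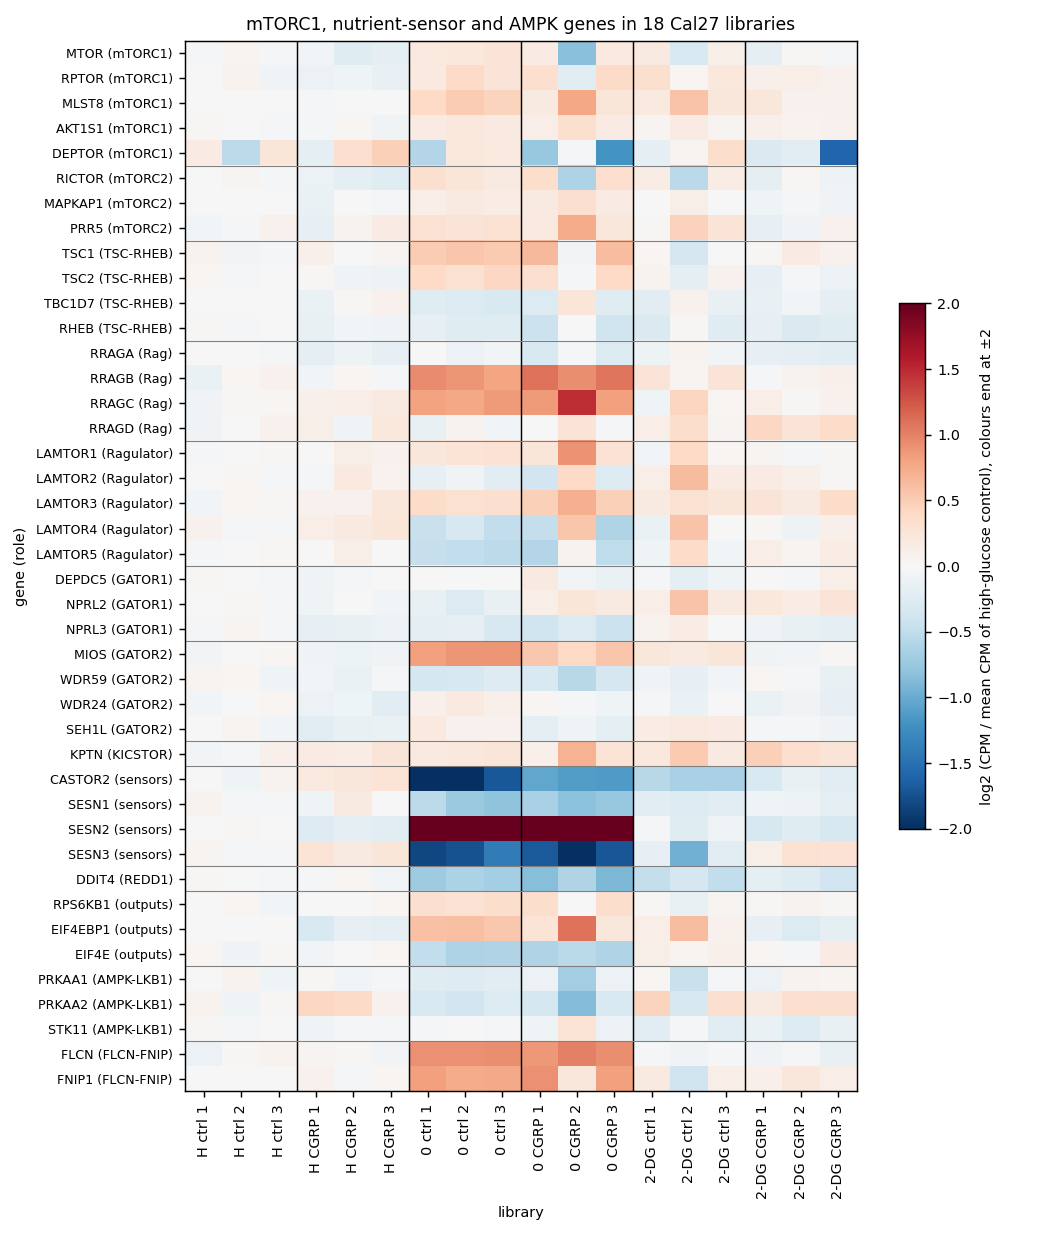
Log2 ratio of CPM to the mean of high-glucose control for the 42 tested genes (rows, grouped by role) in the 18 libraries (columns, grouped by medium and CGRP), with colours ending at ±2. SESN2 has the largest rise in the glucose-deprived libraries, while most rows of the core complexes change by less than 1 log2 unit.

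Glucose deprivation for 24 h in control medium moved the sensors most. SESN2 RNA rose 6.8-fold, while CASTOR2, SESN3, SESN1 and DDIT4 fell. Both FLCN and FNIP1, the Rag genes RRAGB and RRAGC, the GATOR2 gene MIOS and the TSC complex gene TSC1 rose by 0.53 to 0.92 on the log2 scale, and the AMPK catalytic subunit genes did not pass the test. Of 42 tested members 17 rose and 9 fell, where 31.0% of all tested genes rose and 29.6% fell (60.6% in all), so the share of members that changed (61.9%) was close to the background. The members' median log2 fold change was 0.128 and that of all genes 0.023.

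The classes, which were chosen with earlier results of these data known, differed in the size of change. Among the 8 tested sensors and brakes 3 rose and 4 fell, with a median absolute log2 fold change of 0.679, and among the 34 core members 14 rose and 5 fell, with a median of 0.276. The TSC and GATOR1 genes, which also restrain mTORC1, are counted as core complexes in this split. With them among the brakes, a split chosen after seeing the data, the medians were 0.452 for 14 tested genes and 0.284 for the other 28. No test of the difference between classes was made. Scaling by total counts in place of TMM, also chosen after seeing the data, moved the median of all genes from 0.023 to -0.133, and the members' calls to 9 up and 16 down. The share of calls that were rises, over all genes, went from 51.2% to 38.0%. Calls that this scaling ended include those of TSC1 and TSC2, and that of RPS6KB1.

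SESN2 encodes a sestrin, a leucine-binding protein that inhibits GATOR2 when leucine is scarce, and its gene is known as a target of the stress factor ATF4. Its level was 16.9, 17.3 and 16.9 CPM in the high-glucose control libraries and 114, 118 and 116 CPM in the deprived ones. The lowest deprived library was over 6 times the highest high-glucose library, and the log2 fold change was 2.77 ± 0.05 (SE, adjusted p = 1.3e-15). No other member moved as far in any comparison.

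The other sestrin genes went the opposite way. SESN3 was at 19.6, 18.7 and 18.4 CPM in high glucose and at 5.37, 5.65 and 7.17 CPM after deprivation, without overlap, a log2 change of -1.64 ± 0.19 (SE, adjusted p = 1.6e-06). SESN1, known as a p53 target, went from 15.5, 14.4 and 14.4 CPM to 10.3, 8.79 and 8.43 CPM, a change of -0.69 ± 0.08 (SE, adjusted p = 2.3e-06). Per kilobase of merged exons, SESN2 stood at 4.93 CPM in high glucose beside 2.88 for SESN1 and 1.79 for SESN3, and at 33.6 beside 1.79 and 0.574 after deprivation.

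CASTOR2 belongs to the family of the arginine sensor CASTOR1, which binds GATOR2. Its values were 8.55, 8.03 and 8.88 CPM in high glucose and 2.14, 1.93 and 2.62 CPM after deprivation. The groups lay far apart, and the log2 fold change was -1.93 ± 0.09 (SE, adjusted p = 3.3e-11). CASTOR2 has near-identical copies in the genome among which reads can be split, so its level is uncertain. CASTOR1 was near the detection floor in all groups, with 22 counts summed over the 3 high-glucose control libraries and 8 over the 3 deprived ones, and a gene annotated on the same strand covers 46.0% of its exonic length.

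DDIT4 encodes REDD1, a stress-induced protein that restrains mTORC1 through the TSC complex, and it was the member with the highest level per kilobase of exon in every group. It stood at 1089.5, 1076 and 1046 CPM in high-glucose control and at 651, 691 and 672 CPM in deprived control. All 3 deprived libraries were below all 3 high-glucose libraries, a log2 change of -0.67 ± 0.07 (SE, adjusted p = 8.5e-07). An antisense gene, DDIT4-AS1, overlaps 41.2% of its exonic length, with 3423 counts in the whole series against 464690 for DDIT4, and whether counting used strand is not given in the sources used here.

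The other sensors and brakes listed are mTORC1 inhibitors and an mTORC1 target. EIF4EBP1, the 4E-BP1 repressor that binds the cap-binding protein eIF4E until mTORC1 phosphorylates it, was at 44.5, 44.6 and 44.2 CPM in high glucose and 66.99, 67.7 and 64.4 CPM after deprivation, a change of 0.58 ± 0.18 (SE, adjusted p = 0.0096). With no filter on low counts it was 0.55 and did not pass. EIF4E, the protein's partner, moved down from 34.9, 32.1 and 34.6 CPM to 24.2, 22.1 and 22.3 CPM, a change of -0.57 ± 0.06 (SE, adjusted p = 4.9e-07). Repressor and target moved in opposite directions at the RNA level, with no overlap between groups for either gene. AKT1S1, the PRAS40 inhibitor within mTORC1, rose by 0.18 (adjusted p = 0.0081), a call lost in 4 of 14 alternative settings. DEPTOR, an inhibitor of both mTOR complexes, was under 1 CPM in every library. RPS6KB1, the S6 kinase that mTORC1 activates, rose by 0.32 ± 0.08 (SE, adjusted p = 0.0028), or by 0.16 and without passing under scaling by total counts.

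**Figure D3:**
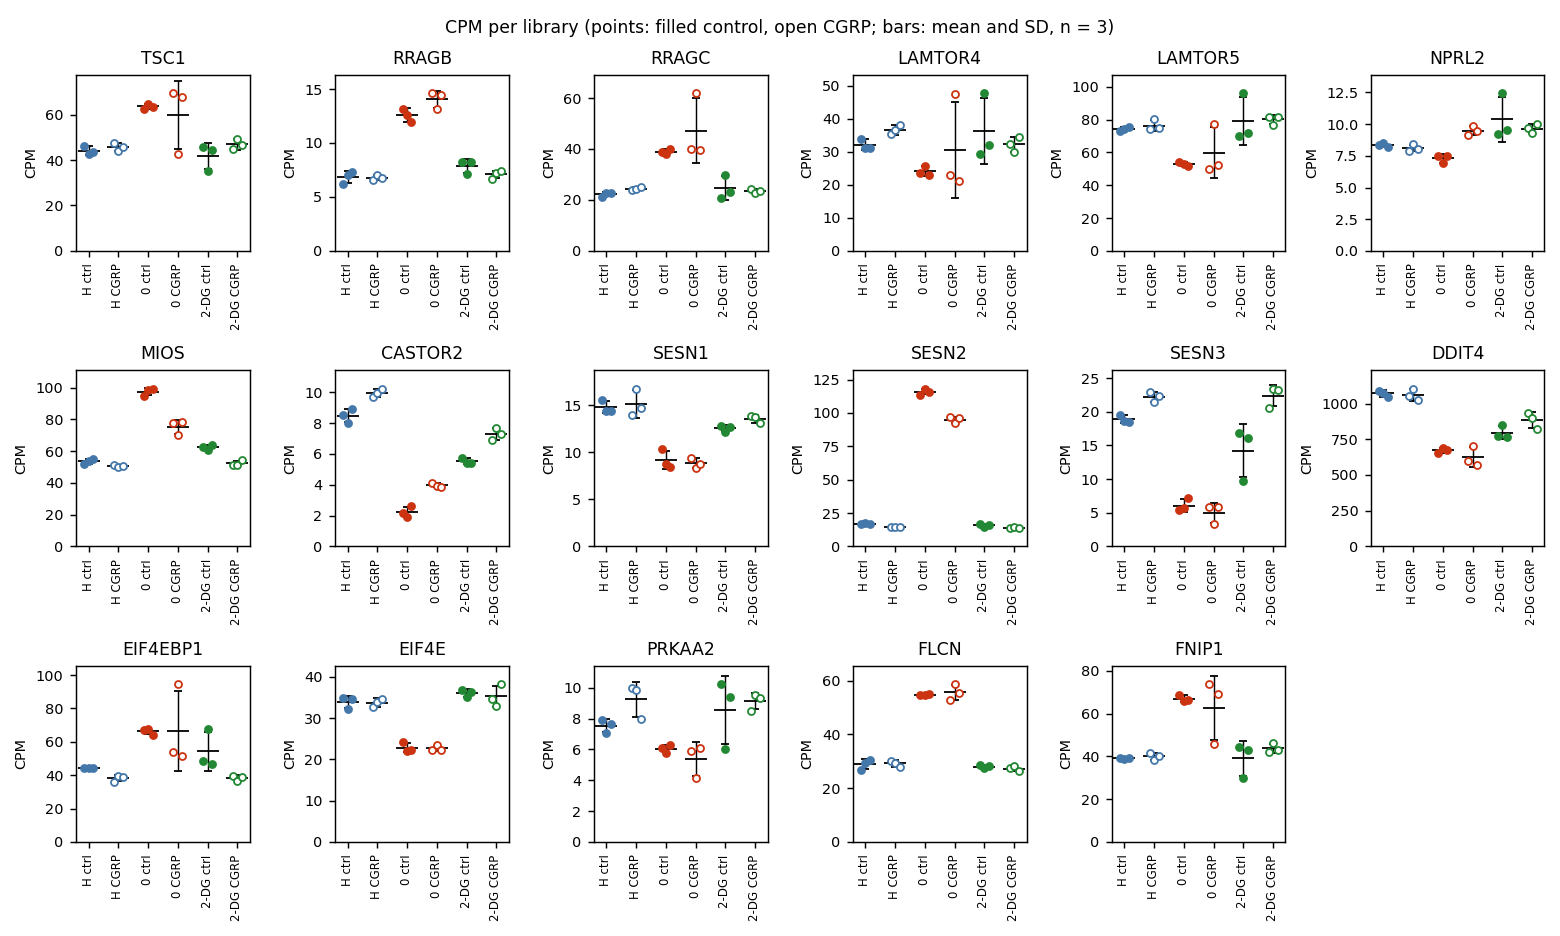
CPM per library for the 17 genes that changed by at least 0.5 on the log2 scale in some comparison, 1 panel each, with groups on the horizontal axis, filled points for control, open points for CGRP, and bars for mean and SD (n = 3). Glucose-deprived SESN2 libraries lie between 92.2 and 118 CPM and all others between 13.7 and 17.3 CPM.

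Among the Rag GTPases, which work as pairs of RRAGA or RRAGB with RRAGC or RRAGD, the genes split. RRAGB was at 6.24, 7.02 and 7.30 CPM in high glucose and 13.2, 12.6 and 11.9 CPM after deprivation, a change of 0.87 ± 0.08 (SE, adjusted p = 7.8e-08). RRAGC went from 21.3, 22.6 and 22.8 CPM to 38.9, 37.8 and 39.9 CPM, a change of 0.81 ± 0.14 (SE, adjusted p = 1.5e-04). Neither gene's groups overlapped. RRAGA and RRAGD had log2 fold changes of -0.06 and -0.04 (adjusted p = 0.45 and 0.73). Per kilobase, RRAGA was the most abundant of the 4 in every group, at 48.5 CPM in high-glucose control beside 2.52 for RRAGB, 4.30 for RRAGC and 3.13 for RRAGD.

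FLCN and FNIP1 form the complex that acts on RRAGC and RRAGD to let mTORC1 recognise the transcription factors TFEB and TFE3. FLCN was at 26.9, 29.5 and 30.6 CPM in high glucose and 54.7, 54.8 and 55.01 CPM in deprived medium, a change of 0.92 ± 0.06 (SE, adjusted p = 5.6e-10). FNIP1 was at 39.2, 38.9 and 39.4 CPM and 68.9, 65.9 and 66.3 CPM, a change of 0.77 ± 0.15 (SE, adjusted p = 2.4e-04). Both genes of the pair thus rose, and for both the deprived libraries all lay above the high-glucose ones. FNIP2, 1 of the further pathway genes and not a member, had means of 9.30 CPM in high-glucose control and 9.73 CPM in deprived control.

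Ragulator, the 5-subunit scaffold on the lysosome, did not move as a unit. LAMTOR5 stood at 73.3, 74.2 and 75.2 CPM in high glucose and 54.1, 52.9 and 51.7 CPM after deprivation, a change of -0.49 ± 0.14 (SE, adjusted p = 0.0055). LAMTOR3 went the other way, by 0.33 ± 0.07 (SE, adjusted p = 8.1e-04). LAMTOR4 was at 33.95, 31.1 and 31.2 CPM and 23.5, 25.7 and 22.8 CPM, and its change of -0.42 ± 0.23 (SE, adjusted p = 0.13) did not pass the test although the groups did not overlap. LAMTOR1 (0.26) and LAMTOR2 (-0.15) did not pass either. An antisense gene overlaps 17.5% of LAMTOR5, and a gene on the opposite strand overlaps 18.4% of LAMTOR4.

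In GATOR2, which relays the amino acid signal by opposing GATOR1, 1 subunit gene stood out. MIOS was at 51.8, 53.6 and 55.3 CPM in high glucose and 94.7, 98.7 and 99.2 CPM after deprivation, with every deprived library higher, a change of 0.86 ± 0.05 (SE, adjusted p = 2.6e-10). WDR59 fell by 0.31 on the log2 scale (adjusted p = 9.5e-04). SEH1L and WDR24 rose by 0.12 and 0.13, values that took the opposite sign when total counts set the scale, at -0.03 and -0.02. In GATOR1, the brake on the Rag GTPases, NPRL3 fell by 0.22 (adjusted p = 0.0047), while NPRL2 (-0.20) and DEPDC5 (-0.004) did not pass. KPTN, a subunit of the KICSTOR complex that places GATOR1 on the lysosome, had a value of 0.21 and did not pass.

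Of the TSC complex, TSC1 was at 46.4, 42.8 and 43.5 CPM in high glucose and 62.7, 64.8 and 63.3 CPM after deprivation, a change of 0.53 ± 0.14 (SE, adjusted p = 0.0032) that was 0.37 and did not pass with scaling by total counts. TSC2, the subunit that acts on RHEB, rose by 0.38 (adjusted p = 0.0018), or by 0.22 and without passing under that scaling. The third subunit, TBC1D7, fell by 0.27 (adjusted p = 0.047), a call lost in 6 of 14 alternatives. RHEB itself was at -0.22 and did not pass. The kinase gene MTOR had values of 126, 133 and 125 CPM and 147, 149 and 153 CPM, and its change of 0.23 ± 0.19 (SE, adjusted p = 0.31) did not pass in the fit with all libraries.

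RPTOR, the scaffold that recruits mTORC1 substrates, rose by 0.28 (adjusted p = 0.043, lost in 11 of 14 alternatives). MLST8, shared by both mTOR complexes, rose by 0.45 (adjusted p = 0.0053). In mTORC2, the second mTOR complex, MAPKAP1 rose by 0.15 (adjusted p = 0.02), which dropped to -0.0017 with scaling by total counts, and RICTOR (0.25) and PRR5 (0.29) did not pass. None of the 3 listed members of the energy branch passed in the fit with all libraries. The AMPK catalytic genes PRKAA1 and PRKAA2 had values of -0.24 and -0.32 (adjusted p = 0.13 and 0.11), and the LKB1 gene STK11 was at -0.01.

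Both libraries that stand apart lie outside these 2 groups but enter the shared estimate of spread. Without them 21 members rose and 16 fell, against 72.4% of all genes. The members added to the rises included MTOR, RICTOR and PRR5, and those added to the falls included RHEB, LAMTOR2, LAMTOR4, NPRL2, PRKAA1 and PRKAA2, while WDR24 was lost at 0.11. Leaving out any 1 of the 6 libraries compared ended the calls of RPTOR (0.20 to 0.31), WDR24 (0.08 to 0.15) and TBC1D7 (-0.32 to -0.27). SEH1L was lost without any of these but H capTG replicate 2 (0.06 to 0.12), MAPKAP1 without H capTG replicate 2 or any deprived library (0.11 to 0.15), and AKT1S1 without deprived replicate 2 (0.14) or 3 (0.16).

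**Figure D4:**
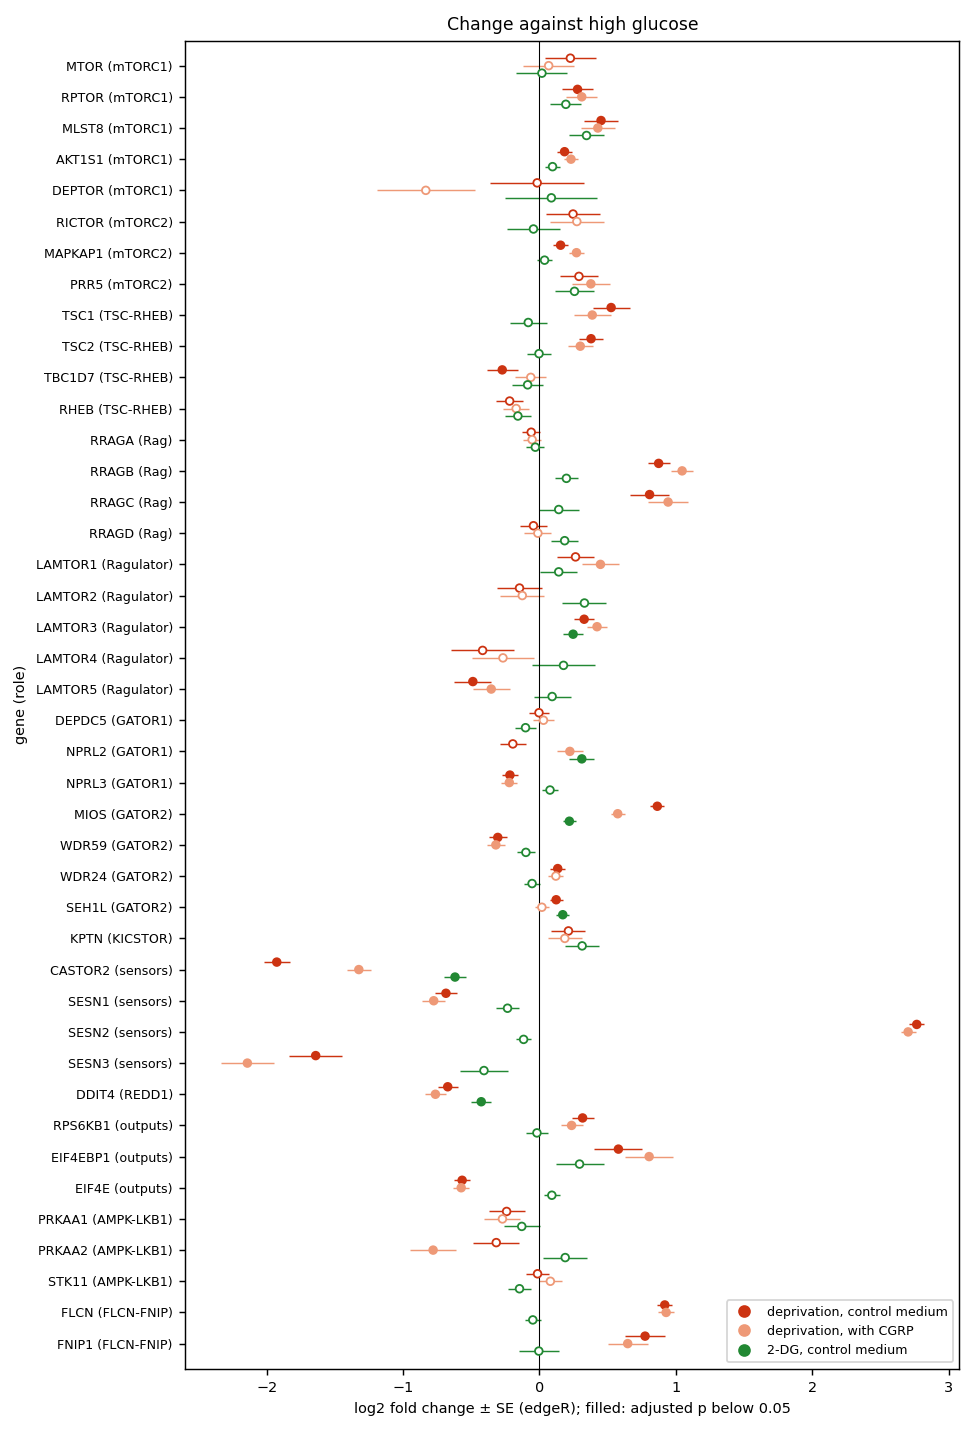
Log2 fold changes with SE for the tested genes (rows, grouped by role) between media, 1 colour per comparison, with filled points where adjusted p was below 0.05. SESN2 lies at 2.77 and 2.70 for deprivation in control and CGRP medium, and near 0 for 2-DG against high glucose.

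Promoter sequences are shown for 5 genes that rose or fell with deprivation. RefSeq windows of the 250 bases before the annotated start (GRCh38.p14) were given for 35 of the 43 genes. They were searched on both strands for CACGTG, a palindromic E-box that reads the same on either strand and lies at the core of sites of the TFEB family. It was found in 8 of 35 windows (22.9%), those of PRR5, TSC2, RRAGB, RRAGC, LAMTOR1, LAMTOR4, EIF4E and FNIP1, and in 6.34% of 35116 windows of all genes. Its extended form TCACGTGA, which contains CACGTG, was in 2 of 35 windows (TSC2 and RRAGB, 5.71%) and in 0.854% of all windows. The composite TGATGNAA, of the kind bound by ATF4 with C/EBP proteins, was in 1 of 35 (TSC2, 2.86%) and in 3.14% of all. The windows of all genes were not limited to genes tested here or matched for base composition, so these shares are not like for like. A match describes the letters only and is not evidence of binding. The windows are printed for RRAGB, RRAGC and FNIP1, which rose and hold the E-box, for EIF4E, which holds it and fell, and for SESN2, which rose most and holds none of the 3 motifs in this window. All read 5′ to 3′ towards the start, with CACGTG in capitals.
RRAGB: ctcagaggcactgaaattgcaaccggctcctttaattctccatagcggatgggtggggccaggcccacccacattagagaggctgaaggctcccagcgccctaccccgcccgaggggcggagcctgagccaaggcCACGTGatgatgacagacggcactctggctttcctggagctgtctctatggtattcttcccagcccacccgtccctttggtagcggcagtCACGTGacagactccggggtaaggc
RRAGC: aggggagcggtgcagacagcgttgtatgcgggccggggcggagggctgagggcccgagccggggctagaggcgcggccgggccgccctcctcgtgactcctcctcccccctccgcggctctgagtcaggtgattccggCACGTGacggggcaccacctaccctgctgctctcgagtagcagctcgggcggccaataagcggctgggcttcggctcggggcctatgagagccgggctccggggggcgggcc
FNIP1: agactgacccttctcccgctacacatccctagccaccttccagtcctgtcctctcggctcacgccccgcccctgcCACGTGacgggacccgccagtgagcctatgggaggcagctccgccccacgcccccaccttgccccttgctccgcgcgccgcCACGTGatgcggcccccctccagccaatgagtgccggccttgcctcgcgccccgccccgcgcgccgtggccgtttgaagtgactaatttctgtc
EIF4E: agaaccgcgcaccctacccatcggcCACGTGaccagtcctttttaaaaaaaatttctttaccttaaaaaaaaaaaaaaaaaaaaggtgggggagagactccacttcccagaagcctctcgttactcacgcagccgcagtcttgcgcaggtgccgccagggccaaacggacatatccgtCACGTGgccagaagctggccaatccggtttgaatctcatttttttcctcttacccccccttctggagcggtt
SESN2: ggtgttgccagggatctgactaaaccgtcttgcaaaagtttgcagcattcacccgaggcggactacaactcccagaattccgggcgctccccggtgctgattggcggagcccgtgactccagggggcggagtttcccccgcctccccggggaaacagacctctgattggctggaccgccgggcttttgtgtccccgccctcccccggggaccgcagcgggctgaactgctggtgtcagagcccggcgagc

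The RRAGB window lies at chrX:55717499-55717748, plus strand, and its E-boxes begin 115 and 25 bases before the start. RRAGC (chr1:38859773-38860022, minus strand) has 1 E-box, beginning 112 bases before the start. FNIP1 (chr5:131797018-131797267, minus strand) has 2, at 175 and 94 bases, and EIF4E (chr4:98929134-98929383, minus strand) has 2, at 225 and 72 bases. The SESN2 window lies at chr1:28259268-28259517, plus strand. Of the 8 members with the E-box, TSC2, RRAGB, RRAGC and FNIP1 rose with deprivation in control medium, EIF4E fell, and PRR5, LAMTOR1 and LAMTOR4 did not pass.

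Deprivation in the presence of CGRP was measured in other libraries, so it repeats the comparison with no sample shared. In it 18 members rose and 9 fell, where 31.9% of all tested genes rose and 28.5% fell (60.4% in all). Of the members, 23 were called in the same direction in both arms, 15 up and 8 down, which is 88.5% of the control calls and 85.2% of the CGRP calls, and none was called in opposite directions. The sign was the same for 39 of 42 members. Over all tested genes 84.8% of the control calls and 85.1% of the CGRP calls were shared, and 88.1% had the same sign, so the members' agreement was close to that of all genes. TBC1D7, WDR24 and SEH1L were called in control medium alone, and PRR5, LAMTOR1, NPRL2 and PRKAA2 under CGRP alone, which by itself shows no difference between arms. Over all genes, the share of calls that were rises was 52.8%, and 41.5% when scaled by total counts, with 11 members up and 14 down.

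SESN2 was at 14.3, 14.8 and 14.6 CPM in high glucose with CGRP and 96.6, 92.2 and 95.8 CPM in deprived medium with CGRP, a change of 2.70 ± 0.06 (SE, adjusted p = 1.2e-15). SESN3 fell from 22.9, 21.4 and 22.3 CPM to 5.90, 3.31 and 5.79 CPM, a change of -2.14 ± 0.20 (SE, adjusted p = 8.3e-08). CASTOR2 fell from 9.71, 9.98 and 10.2 CPM to 4.13, 3.93 and 3.87 CPM, a change of -1.32 ± 0.09 (SE, adjusted p = 1.2e-09). For all 3 genes the groups did not overlap, and without both libraries that stand apart the values were 2.70, -1.95 and -1.34. SESN1 (-0.78) and DDIT4 (-0.76, from 1051, 1102 and 1026 CPM to 596, 704 and 573 CPM) also fell.

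RRAGB, RRAGC and FLCN rose here too. RRAGB went from 6.61, 7.04 and 6.75 CPM to 14.6, 13.1 and 14.4 CPM, a change of 1.05 ± 0.08 (SE, adjusted p = 7.6e-09). RRAGC was at 23.9, 24.3 and 25.1 CPM and 40.1, 61.8 and 39.4 CPM, with replicate 2 of the deprived group the highest of all 18 libraries, and its change of 0.94 was 0.67 without the libraries that stand apart. FLCN, at 30.3, 29.4 and 27.9 CPM and 52.8, 58.6 and 55.4 CPM, rose by 0.93 ± 0.06 (SE, adjusted p = 4.5e-10).

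Some values turn on replicate 2 of the deprived CGRP group. FNIP1 was at 41.6, 38.4 and 40.3 CPM and then 73.6, 45.8 and 68.9 CPM, and its rise of 0.65 was 0.80 without both libraries. TSC1, at 47.4, 44.2 and 45.9 CPM and then 69.4, 42.6 and 67.6 CPM, rose by 0.39 with overlapping groups and by 0.55 without them. EIF4EBP1, at 36.04, 39.5 and 38.9 CPM and then 53.9, 94.4 and 51.8 CPM, rose by 0.80, or by 0.44 without them. In each of these genes replicate 2 was the one that differed from its mates, low for FNIP1 and TSC1 and high for EIF4EBP1.

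MIOS rose from 51.1, 50.2 and 50.9 CPM to 77.6, 70.4 and 78.4 CPM, by 0.57 ± 0.05 (SE, adjusted p = 4.3e-08), and EIF4E fell from 32.6, 33.95 and 34.6 CPM to 22.3, 23.4 and 22.3 CPM, a change of -0.57 ± 0.06 (SE, adjusted p = 4.3e-07). PRKAA2, the AMPK catalytic gene of lower level, was at 9.98, 9.83 and 7.95 CPM and 5.87, 4.12 and 6.11 CPM, a fall of 0.78 on the log2 scale (adjusted p = 7.4e-04) with no overlap. LAMTOR5, at 74.1, 80.4 and 74.6 CPM and 49.6, 77.5 and 52.3 CPM, fell by 0.35 with overlapping groups, and by 0.61 without both libraries. NPRL2 was at 7.90, 8.42 and 8.05 CPM and 9.15, 9.87 and 9.43 CPM, and its rise of 0.22 (adjusted p = 0.049) was lost in all 14 alternative settings. Without both libraries 18 members rose and 17 fell, against 69.9% of all genes, and PRR5 (0.16) joined NPRL2 among the calls lost.

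The other rises under CGRP were those of MLST8 (0.43), LAMTOR1 (0.45), LAMTOR3 (0.42), PRR5 (0.38), RPTOR (0.31), TSC2 (0.30), MAPKAP1 (0.27), RPS6KB1 (0.24) and AKT1S1 (0.23). Without replicate 2 of the deprived group LAMTOR1 (0.18), MLST8 (0.19) and PRR5 (0.16) did not pass, and AKT1S1 was at 0.14. Without replicate 1 or 3 of that group RPTOR (0.21 and 0.19), RPS6KB1 (0.16 and 0.15), TSC2 (0.24 and 0.20), TSC1 (0.25 and 0.27) and LAMTOR5 (-0.25 and -0.29) did not pass. Leaving out a high-glucose CGRP library also ended the calls of RPTOR and LAMTOR5 (any of the 3, at 0.30 to 0.32 and -0.38 to -0.32), PRR5 (replicate 1 at 0.29, replicate 2 at 0.39), TSC1 (replicate 2 at 0.36, replicate 3 at 0.39) and RPS6KB1 (replicate 2 at 0.22). The other falls were those of WDR59 (-0.32) and NPRL3 (-0.22).

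The next comparison asks what 2-DG did while glucose was present. In control medium CASTOR2 and DDIT4 fell and MIOS, NPRL2, LAMTOR3 and SEH1L rose, which makes 4 up and 2 down of 42 tested. Of all tested genes 7.99% rose and 5.85% fell, 13.8% in all. SESN2 did not pass. This comparison shares its high-glucose control libraries with the deprivation comparison in control medium. Over all genes 57.7% of calls were rises, and 38.1% when scaled by total counts, with 0 members up and 3 down.

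CASTOR2 was at 5.75, 5.41 and 5.41 CPM in 2-DG, below all 3 high-glucose libraries given above, a change of -0.62 ± 0.08 (SE, adjusted p = 1.2e-04). DDIT4 was at 773, 850.3 and 765 CPM, also without overlap, a change of -0.43 ± 0.07 (SE, adjusted p = 0.001). SESN2 was at 16.8, 14.4 and 15.99 CPM, slightly under its high-glucose values, with a change of -0.12 ± 0.05 (SE, adjusted p = 0.19). SESN3 was at 16.8, 9.75 and 16.2 CPM, with replicate 2 the lowest, and its value of -0.41 ± 0.18 (SE, adjusted p = 0.15) did not pass. SESN1, at 12.8, 12.2 and 12.7 CPM, had a value of -0.23 and did not pass.

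Among core genes, MIOS was at 62.6, 60.9 and 63.7 CPM, above its high-glucose values, a change of 0.22 ± 0.05 (SE, adjusted p = 0.0075). NPRL2 stood at 8.35, 8.54 and 8.21 CPM in high glucose and 9.22, 12.4 and 9.53 CPM in 2-DG, and its rise of 0.31 (adjusted p = 0.035) was 0.16 and did not pass without both libraries that stand apart. LAMTOR3 and SEH1L rose by 0.25 and 0.17 (adjusted p = 0.03 and 0.028), and these calls, like that of NPRL2, were lost in 8 of 14 alternatives. Leaving out H capTG replicate 1 or 3 or 2-DG capTG replicate 2 ended each of these 3 calls, at 0.22, 0.26 and 0.21 for LAMTOR3, 0.31, 0.30 and 0.16 for NPRL2, and 0.17, 0.14 and 0.15 for SEH1L. H capTG replicate 2 did so for LAMTOR3 (0.27) and NPRL2 (0.33), 2-DG capTG replicate 3 for LAMTOR3 (0.25) and SEH1L (0.18), and 2-DG capTG replicate 1 for SEH1L (0.18). Without both libraries 11 members rose and 7 fell, against 32.5% of all genes, with SESN1 and SESN3 now among the falls and MTOR, RPTOR, RICTOR and PRKAA2 among the rises.

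In medium with CGRP, 2-DG against high glucose gave 0 rises and 1 fall among 42 tested members, where 1.52% of all tested genes rose and 0.870% fell (2.39% in all). At an unadjusted p below 0.05 there were 6 members, and DESeq2 called 2. The fall was that of CASTOR2, at 9.71, 9.98 and 10.2 CPM in high glucose and 6.88, 7.66 and 7.30 CPM in 2-DG, a change of -0.45 ± 0.08 (SE, adjusted p = 0.0074), without overlap. DDIT4 was at 936, 896 and 822 CPM in 2-DG with CGRP, with a value of -0.26 ± 0.07 (SE, adjusted p = 0.085) that did not pass. Without both libraries 7 members rose and 5 fell, against 19.5% of all genes. The share of calls that were rises, over all genes, was 63.6%, and 51.1% with scaling by total counts.

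Deprivation and 2-DG were also compared with each other in control medium. Relative to deprived cells, 2-DG cells had 12 members higher and 10 lower, where 28.9% of all tested genes were higher and 28.6% lower (57.5% in all). SESN2 was lower in 2-DG, a change of -2.88 ± 0.06 (SE, adjusted p = 1.6e-15). CASTOR2 was higher by 1.31 ± 0.10 (SE, adjusted p = 7.6e-09) and SESN3 by 1.23 ± 0.19 (SE, adjusted p = 4.4e-05), and for both the groups did not overlap. SESN1 and DDIT4 were higher by 0.45 and 0.25. The comparison shares the deprived and the 2-DG libraries with those above, so its values are their differences.

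Both listed genes of the folliculin complex were lower in 2-DG than in deprived cells. FLCN was at 28.5, 27.5 and 28.1 CPM, a change of -0.97 ± 0.06 (SE, adjusted p = 3.8e-10). FNIP1 was at 44.3, 29.8 and 43.01 CPM, with replicate 2 the lowest, a change of -0.78 ± 0.15 (SE, adjusted p = 2.5e-04). The call of FNIP1 held without both libraries that stand apart. FNIP2 had a mean of 9.85 CPM in 2-DG control. RRAGB was at 8.21, 7.12 and 8.24 CPM in 2-DG, lower by 0.68 on the log2 scale, and RRAGC at 20.8, 29.8 and 22.9 CPM, lower by 0.67. MIOS (-0.64), TSC1 (-0.61, at 45.6, 35.1 and 44.6 CPM in 2-DG), TSC2 (-0.38), RPS6KB1 (-0.34) and WDR24 (-0.19) make up the rest of the lower members.

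Higher in 2-DG than in deprived cells was EIF4E, at 36.8, 35.01 and 36.4 CPM, by 0.66 ± 0.06 (SE, adjusted p = 9.6e-08). Of the Ragulator genes LAMTOR4 stood at 29.3, 47.6 and 31.9 CPM, a change of 0.59 ± 0.23 (SE, adjusted p = 0.038), and LAMTOR5 at 69.8, 95.95 and 71.8 CPM, a change of 0.58 ± 0.14 (SE, adjusted p = 0.0017), in each case with replicate 2 the highest and no overlap, and LAMTOR2 was higher by 0.48. Without both libraries that stand apart their values were 0.37, 0.44 and 0.32. NPRL2, at 7.51, 6.89 and 7.51 CPM in deprived cells, was higher in 2-DG by 0.51 ± 0.09 (SE, adjusted p = 2.2e-04). Replicate 2 of 2-DG was its highest library, at 12.4 CPM beside 9.22 and 9.53 CPM, and the NPRL2 call held without both libraries. PRKAA2 was at 6.06, 5.79 and 6.26 CPM in deprived and 10.2, 6.06 and 9.39 CPM in 2-DG cells, higher by 0.51 ± 0.17 (SE, adjusted p = 0.016), with replicate 2 of 2-DG inside the deprived range. NPRL3 (0.29) and WDR59 (0.21) were the other higher members. EIF4EBP1, at 48.5, 67.9 and 46.97 CPM in 2-DG, did not pass at -0.28. The calls of LAMTOR4 and LAMTOR2 were lost without 2-DG capTG replicate 2 alone (0.37 and 0.32), that of LAMTOR4 also without any 1 deprived library (0.58 to 0.67), and that of LAMTOR2 also without deprived replicate 3 (0.47). PRKAA2 was lost without 2-DG replicate 1 (0.36) or 3 (0.44), WDR59 without 2-DG replicate 3 (0.18), and WDR24 without deprived replicate 2 or 2-DG replicate 2 (-0.13 in both). Without both libraries 13 members were higher and 16 lower, against 66.8% of all genes.

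CGRP was compared with control in each medium, and the members' median absolute log2 change was 0.076 in high glucose, 0.136 in deprived and 0.119 in 2-DG medium. The deprived and 2-DG comparisons each hold 1 of the libraries that stand apart, and medians without these were not computed. Without both libraries 14, 16 and 15 members were called in the 3 media, against 19.1%, 28.7% and 28.4% of all genes. Whether the medians differ between media was not tested. SESN2 was lower with CGRP in all 3 media. MIOS and SEH1L, both of GATOR2, were lower and CASTOR2 higher in deprived and in 2-DG medium. In high glucose 0 members rose and 1 fell, where 2.04% of all tested genes rose and 2.29% fell (4.33% in all). In deprived medium 3 rose and 3 fell, where 6.38% and 6.58% of all genes did (13.0% in all). In 2-DG medium 2 rose and 4 fell, where 5.31% and 6.89% of all genes did (12.2% in all). These shares of members (2.38%, 14.3% and 14.3%) were near the background.

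SESN2 in high glucose fell from the control values given above to 14.3, 14.8 and 14.6 CPM, a change of -0.23 ± 0.06 (SE, adjusted p = 0.027). In deprived medium it fell to 96.6, 92.2 and 95.8 CPM, a change of -0.29 ± 0.05 (SE, adjusted p = 0.0013). In 2-DG medium it was at 13.7, 14.4 and 13.7 CPM with CGRP, a change of -0.18 ± 0.06 (SE, adjusted p = 0.047). The groups did not overlap in any medium. Without both libraries that stand apart the 3 values were -0.22, -0.26 and -0.23, all past the threshold, while the calls in high glucose and 2-DG were lost in 8 and 12 of 14 alternatives. These include leaving out any 1 of the 6 libraries compared in high glucose (-0.24 to -0.21) and any of those in 2-DG but control replicate 2 (-0.20 to -0.13).

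CASTOR2 was higher with CGRP in deprived medium, at 4.13, 3.93 and 3.87 CPM against 2.14, 1.93 and 2.62 CPM in control, by 0.83 ± 0.10 (SE, adjusted p = 6.3e-05). In 2-DG medium it was at 6.88, 7.66 and 7.30 CPM against 5.75, 5.41 and 5.41 CPM, higher by 0.40 ± 0.09 (SE, adjusted p = 0.0052). In high glucose the change was 0.23 ± 0.08 (SE, adjusted p = 0.14), with CGRP libraries above control libraries, and did not pass with all libraries. Without both libraries the values in deprived and 2-DG medium were 0.85 and 0.39, and the rise in high glucose passed as well.

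MIOS in deprived medium was at 77.6, 70.4 and 78.4 CPM with CGRP against 94.7, 98.7 and 99.2 CPM in control, a change of -0.37 ± 0.05 (SE, adjusted p = 1.5e-04). In 2-DG it was at 51.1, 51.5 and 54.3 CPM against 62.6, 60.9 and 63.7 CPM, a change of -0.25 ± 0.05 (SE, adjusted p = 0.0028), and in high glucose its value was -0.08 (adjusted p = 0.54). SEH1L, which is also a nuclear pore protein, was at 124, 133 and 123 CPM against 160.5, 149.9 and 149.7 CPM in deprived medium, a change of -0.27 ± 0.05 (SE, adjusted p = 0.0016). In 2-DG medium it was at 137, 137 and 134 CPM against 157, 161 and 158 CPM, a change of -0.22 ± 0.05 (SE, adjusted p = 0.0064), and in high glucose its value was -0.17 (adjusted p = 0.066). The fall of SEH1L in high glucose passed without both libraries that stand apart and with scaling by total counts, while that of MIOS did not. None of the called groups of MIOS or SEH1L overlapped.

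In deprived medium NPRL2 was at 9.15, 9.87 and 9.43 CPM with CGRP against 7.51, 6.89 and 7.51 CPM in control, a rise of 0.38 ± 0.09 (SE, adjusted p = 0.016), and LAMTOR3 rose by 0.23 ± 0.07 (SE, adjusted p = 0.042). In 2-DG medium NPRL3 fell by 0.21 (adjusted p = 0.026). SESN3 was at 20.6, 23.4 and 23.2 CPM with CGRP against 16.8, 9.75 and 16.2 CPM in control, a rise of 0.65 ± 0.18 (SE, adjusted p = 0.024) that was 0.45 and still passed without both libraries that stand apart. With control replicate 2 alone left out, its value was 0.44 and did not pass (adjusted p = 0.067, and 4.0e-06 to 0.083 over its alternatives). It was also lost without CGRP replicate 2 or 3 (0.62 in both). NPRL2 was lost without deprived control replicate 2 (0.35), LAMTOR3 without any deprived control library or CGRP replicate 2 (0.15 to 0.26), and NPRL3 without 2-DG control replicate 1 or 2 or CGRP replicate 2 or 3 (-0.22 to -0.18).

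When only the 2 groups compared were fitted, all 6 calls of CGRP in deprived medium were lost, with values for SESN2 and CASTOR2 of -0.28 and 0.84 (adjusted p = 0.13 and 0.059, the highest over the alternatives for either gene). Without both libraries that stand apart the counts were 7 up and 7 down in high glucose, 6 up and 10 down in deprived medium and 5 up and 10 down in 2-DG, against 19.1%, 28.7% and 28.4% of all genes. Scaling by total counts raised the share of calls that were rises, over all genes, from 49.2% to 66.2% in deprived medium and from 43.5% to 57.0% in 2-DG medium, with 3 members up and 3 down in each.

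Whether the effect of CGRP differed between media was tested with interaction terms. CASTOR2 was the single member called, with an effect of CGRP in deprived medium 0.60 ± 0.13 (SE, adjusted p = 0.026) above that in high glucose on the log2 scale, where 0.903% of all tested genes had a higher and 0.650% a lower effect (1.55% in all). The call was lost in 10 of 20 alternatives. For 2-DG the count was 0 of 42 by edgeR and by DESeq2, where 0.121% and 0.270% of all genes had a higher or lower effect (0.391% in all), with 1 member at an unadjusted p below 0.05. Without both libraries the counts were 4 up and 6 down for deprivation and 1 up and 2 down for 2-DG, against 13.5% and 5.91% of all genes. With scaling by total counts the rises were 70.5% rather than 58.2% of all calls for deprivation and 44.4% rather than 31.0% for 2-DG, and the members' counts stayed at 1 and 0.

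**Figure D5:**
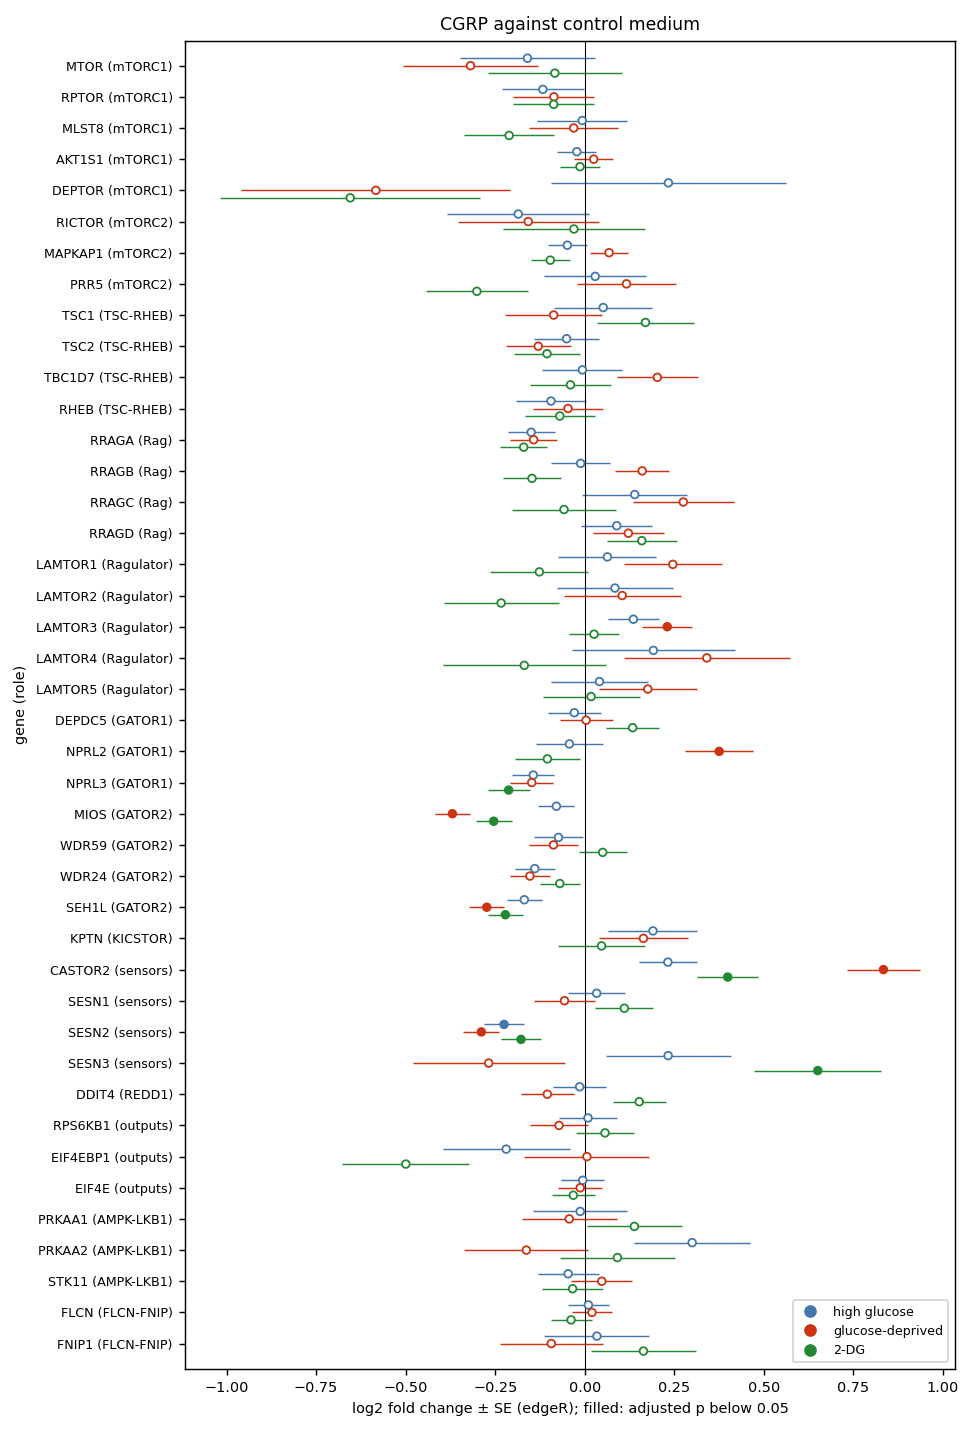
Log2 fold changes with SE for CGRP against control in high-glucose, deprived and 2-DG medium (1 colour each), with genes in rows grouped by role and filled points where adjusted p was below 0.05. SESN2 lies between -0.29 and -0.18 in all 3 media and CASTOR2 between 0.23 and 0.83.

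Levels per kilobase rank the paralogs. For the AMPK catalytic subunits PRKAA1 was at 21.1 CPM per kb in high-glucose control and PRKAA2 at 0.804, and in deprived control at 17.9 and 0.645. Among the Ragulator genes in high-glucose control, LAMTOR5 (31.1) and LAMTOR1 (30.5) lay above LAMTOR2 (23.2), LAMTOR4 (16.6) and LAMTOR3 (5.84). GATOR1's DEPDC5 (0.847) and NPRL2 (2.28) were lower than NPRL3 (4.65), and of GATOR2 SEH1L (13.4) was the highest of MIOS (7.98), WDR24 (6.52) and WDR59 (5.94). DDIT4 stood at 520.1 CPM per kb, far above all other members, and RHEB (38.5) and EIF4EBP1 (41.4) were among the next. Merged exons include those of minor transcripts, so these values rank genes only roughly.

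A list of 39 further genes of the same pathways, 36 of them tested, was counted beside the members. With deprivation in control medium 14 of the 36 rose and 11 fell (69.4%, against 60.6% of all tested genes). The tested regulatory subunit genes of AMPK rose, while its catalytic genes did not pass with all libraries and fell without both that stand apart. PRKAB1 rose by 1.11 ± 0.06 (SE, adjusted p = 1.1e-10) and PRKAB2 by 1.09 ± 0.09 (SE, adjusted p = 2.0e-08). PRKAG1 rose by 0.79 and PRKAG2 by 0.42, and PRKAG3 had too few counts to be tested. SLC38A9, the lysosomal arginine sensor that contacts Ragulator, rose by 1.06 ± 0.07 (SE, adjusted p = 1.2e-09), and the KICSTOR subunit ITFG2 by 0.88. EIF4B had means of 623 CPM in high-glucose control and 970 CPM in deprived control.

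PRR5L, a partner of mTORC2, fell most, from 1.77, 2.25 and 1.99 CPM to 0.231, 0.448 and 0.340 CPM, a change of -2.55 ± 0.27 (SE, adjusted p = 4.5e-07). SGK1, a kinase that mTORC2 activates, fell by 1.75, the RHEB paralog RHEBL1 by 1.24 and the lysosomal transcription factor TFEB by 1.09. The acetyl-CoA carboxylase genes ACACA and ACACB, whose proteins AMPK phosphorylates, were at -0.68 and -0.87. EIF4EBP2, the paralog of EIF4EBP1, fell by 0.65, opposite to EIF4EBP1. Between the same groups mean EEF2K went from 40.1 to 27.1 CPM and mean TTI2 from 25.3 to 17.6 CPM. Under CGRP the same comparison gave 12 up and 12 down (66.7%, against 60.4% of all tested genes). PRKAB1 was at 1.04, PRKAB2 at 1.16, SLC38A9 at 1.02, PRR5L at -2.34 and SGK1 at -1.78.

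For 2-DG against high glucose 5 of these 36 genes rose and 3 fell in control medium (22.2%, against 13.8% of all tested genes). In that comparison with CGRP 1 rose and 1 fell (5.56%, against 2.39% of all tested genes). ULK1, the autophagy kinase on which both mTORC1 and AMPK act, fell in both, by 0.45 and 0.24 on the log2 scale (adjusted p = 1.5e-05 and 0.014). In control medium PRR5L fell by 1.22 and the GATOR2 subunit gene SEC13 rose by 0.52. Against deprived cells 12 were higher and 12 lower in 2-DG (66.7%, against 57.5% of all tested genes). CGRP in high glucose gave 1 up and 2 down, in deprived medium 0 up and 3 down, and in 2-DG medium 4 up and 6 down. These were 8.33%, 8.33% and 27.8% of the 36, against 4.33%, 13.0% and 12.2% of all tested genes. CAMKK2, a calcium-dependent kinase that activates AMPK, was lower with CGRP in all 3 media, at -0.27, -0.30 and -0.26 (adjusted p = 0.017, 0.0034 and 0.0097). Neither interaction called any of the 36, where 1.55% (deprivation) and 0.391% (2-DG) of all tested genes were called.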

How the data were processed

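Total RNA (RIN above the submitters' limit) was sequenced on Illumina libraries. The authors deposited 1 table of raw counts per Ensembl gene and library. Per the submitters' processing notes, HISAT2 2.0.4 was used and 2 builds (hg19 and GRCh38) are named without their roles. No source used here gives the counter or its strand setting. Symbols came from a table of 60370 identifiers, exonic lengths from GENCODE 29 and promoter windows from RefSeq (GRCh38.p14).

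Counts were tested with edgeR 4.0.16 (R 4.3.3): TMM scaling, the filterByExpr filter (minimum count 10, minimum total 15), 1 coefficient per group, robust quasi-likelihood fits over all 18 libraries (12 residual degrees of freedom, common biological coefficient of variation 9.44%) and 10 comparisons. The SE is the absolute log2 fold change divided by the square root of F. Libraries held 28038260 to 32661768 counts. Counting error is above the common coefficient of variation for genes with few reads, among them CASTOR1, DEPTOR (as few as 6 counts in a library), PRR5L (7) and, in deprived control, CASTOR2 (56). In their lowest library it is also above it for RHEBL1 (43), TFEB (69), SESN3 (86) and PRKAA2 (107). P-values measure the spread between repetitions labelled as biologically independent. Members with a log2 change of at least 0.5 and adjusted p below 0.05 in any comparison are given in every library (17 genes). The members, the roles and the further pathway genes were chosen with earlier results of these data known. Alternatives were DESeq2 1.42.0, RLE size factors, no filter or a stricter one, a replicate block, fits of only the groups compared, and leaving out each library. The script was tested on simulated data. Of 45 same-numbered pairs of libraries from different groups 10 had correlated deviations (r over 0.1), so the numbers were not treated as pairs.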

Additional observations from a re-analysis of the deposited data

Results flagged for a closer look

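The effect of CGRP on CASTOR2 differed between deprived and high-glucose medium by 0.60 on the log2 scale, by the test of the interaction itself (edgeR's quasi-likelihood test, adjusted p = 0.026, and 0.0064 to 0.12 over 20 alternatives). All 3 deprived CGRP libraries were above all 3 deprived control libraries, and all 3 high-glucose CGRP libraries above all 3 high-glucose control libraries. The value was 0.61 without both libraries that stand apart and 0.61, past no threshold, when only the groups compared were fitted. Leaving out H capTG replicate 1 or 3, any H TG library, 0 capTG replicate 1 or 2, or 0 TG replicate 1 ended the call, at 0.52 to 0.62 for CASTOR2. The deprived control libraries held 56 to 77 counts of CASTOR2, the fewest of any group, and reads may be split with its near-identical copies. The part of either in the difference was not tested.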

How the results depend on the processing

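Of 96 member results that were called, 55 kept their direction and call in every alternative run, 41 lost the call in at least 1, and 3 changed sign. Of 99 called results of the further pathway genes, 67 kept direction and call, 32 lost the call in at least 1 alternative and 1 changed sign. All 4 sign changes came with scaling by total counts, for deprivation in control medium: MAPKAP1 at -0.0017, WDR24 at -0.0225, SEH1L at -0.0339 and TFE3 at -0.0343. Counts of members called moved by over 1.5 times as follows, each against the number reported. For 2-DG against high glucose in control medium (6), there were 2 with no filter, 2 with only the groups compared, 18 without both libraries that stand apart and 3 with scaling by total counts. For 2-DG under CGRP (1), DESeq2 gave 2, the replicate block 2, only the groups compared 8, without both libraries 12, and total counts 2. For deprivation under CGRP (27), only the groups compared gave 17. For CGRP in high glucose (1), DESeq2 gave 2, no filter 0 (6 members at an unadjusted p below 0.05 in the fit reported), only the groups compared 15 and without both libraries 14. For CGRP in deprived medium (6), only the groups compared gave 0 and without both libraries 16. For CGRP in 2-DG (6), no filter gave 2, only the groups compared 2 and without both libraries 15. For the interaction with deprivation (1), DESeq2 gave 2, no filter 0, the stricter filter 2, the replicate block 2, only the groups compared 0 (3 members at an unadjusted p below 0.05 in the fit reported) and without both libraries 10. For the interaction with 2-DG (0), without both libraries there were 3. The cause of these moves was not tested. Leaving out 1 library at a time gave 20 to 22 members for deprivation in control medium, 3 to 5 for 2-DG in control medium, 20 to 21 for 2-DG against deprivation, 21 to 31 for deprivation under CGRP, 1 to 1 for 2-DG under CGRP, 0 to 0 for CGRP in high glucose, 4 to 8 for CGRP in deprived medium, 3 to 5 for CGRP in 2-DG, and 0 to 2 and 0 to 0 for the interactions. Same-numbered libraries had a median correlation of deviations of -0.001 over 45 pairs, with a range of -0.493 to 0.866. Of these 10 were over 0.1, and 8 of 18 libraries correlated best with their own number. The highest value was that between both libraries that stand apart. The same 2 groups, 0 TG and 2-DG capTG, which no comparison sets against each other, had 0.732 and 0.672 for replicates 1 and 3. Deviations from a group mean sum to 0, so these values are tied to that of replicate 2 and are no separate evidence of pairing. In no comparison did every pair exceed 0.1, so the block results describe a shared number. Depth limits CASTOR1, which was not tested, and DEPTOR, with 6 to 26 counts per library, PRR5L, with 7 to 96, and CASTOR2, with 56 to 77 in deprived control. It also limits RHEBL1, TFEB, SESN3 and PRKAA2 in their lowest libraries, with 43, 69, 86 and 107 counts.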
